A study of Mus musculus with 2 samples.

Results

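The 10 genes described here are direct transcriptional targets of p53: Cdkn1a, Mdm2, Ccng1, Bbc3, Bax, Phlda3, Zmat3, Trp53inp1, Aen and Eda2r. They were taken by symbol from a table of 15348 mouse genes, and all 10 were listed. Liver RNA came from female NOG-TKm30 mice aged 16 weeks, a strain of NOG mice that carry clone 30 of a mutated herpes simplex virus thymidine kinase (HSVtk) cDNA driven by the enhancer and promoter of mouse transthyretin, a gene of hepatocytes. Ortho-toluidine (OTD) is an aromatic amine, and the OTD group was given 0.6% of it during 1 week and 0.3% during the next 3 weeks, while the Control group received 0% over the same 4 weeks. Each group was sequenced as 1 library, a pool of 5 mice for OTD and of 3 mice for Control. By the labels, both groups carry the transgene and the NOG background, which as general knowledge includes the scid mutation of the DNA repair kinase gene Prkdc. One protocol label calls the mice C57BL, whereas the strain label and the titles call them NOG-TKm30, and both column names of the deposited table hold the word Wild, which no label explains.

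p53 (gene Trp53) is a transcription factor that is kept scarce by the ubiquitin ligase Mdm2 and accumulates after DNA damage and other stress. Its targets form a negative feedback loop through Mdm2, halt the cell cycle through the cyclin-dependent kinase inhibitor p21 (Cdkn1a), and promote cell death through BCL2 family proteins such as PUMA (Bbc3) and Bax. In liver, p53 and p21 are studied in regeneration, toxic injury and tumour formation, and Cdkn1a in particular also has inducers other than p53.

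Target genes of p53 share a DNA element made of a pair of 10-base motifs, and the start regions in which it was found are shown because these genes differed from each other in the OTD pool. RefSeq start windows of 300 bases (250 before and 50 from the start; GRCm38.p6) were held for 8 of the 10 genes, in 12 windows, and not for Zmat3 and Trp53inp1. A full p53 element was searched as 2 abutting copies of the 10-base p53 consensus with the core C and G of each copy intact and at most 3 mismatches over 20 bases, a limit chosen after the matches were seen. The consensus reads the same on both strands, so 1 search covered both. It occurred in start windows of Cdkn1a, Ccng1, Bbc3 and Aen, printed 5′ to 3′ on the strand of the gene with the element in capitals.
Cdkn1a: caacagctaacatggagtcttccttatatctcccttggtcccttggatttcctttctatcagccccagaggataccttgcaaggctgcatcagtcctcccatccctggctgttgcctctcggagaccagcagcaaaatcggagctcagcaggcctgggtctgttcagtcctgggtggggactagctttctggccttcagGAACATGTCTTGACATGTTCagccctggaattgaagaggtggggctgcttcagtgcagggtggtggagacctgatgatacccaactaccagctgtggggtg
Ccng1: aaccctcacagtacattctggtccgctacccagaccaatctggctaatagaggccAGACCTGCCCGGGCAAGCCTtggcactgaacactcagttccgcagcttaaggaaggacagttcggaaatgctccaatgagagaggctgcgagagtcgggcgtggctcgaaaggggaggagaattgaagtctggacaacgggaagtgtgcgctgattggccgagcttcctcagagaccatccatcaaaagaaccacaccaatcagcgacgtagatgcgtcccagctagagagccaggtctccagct
Bbc3: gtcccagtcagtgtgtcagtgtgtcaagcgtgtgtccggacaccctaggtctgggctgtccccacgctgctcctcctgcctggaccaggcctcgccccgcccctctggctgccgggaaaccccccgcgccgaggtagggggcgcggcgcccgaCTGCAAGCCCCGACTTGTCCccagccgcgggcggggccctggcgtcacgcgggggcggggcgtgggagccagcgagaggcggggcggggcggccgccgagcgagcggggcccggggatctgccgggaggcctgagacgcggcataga
Aen: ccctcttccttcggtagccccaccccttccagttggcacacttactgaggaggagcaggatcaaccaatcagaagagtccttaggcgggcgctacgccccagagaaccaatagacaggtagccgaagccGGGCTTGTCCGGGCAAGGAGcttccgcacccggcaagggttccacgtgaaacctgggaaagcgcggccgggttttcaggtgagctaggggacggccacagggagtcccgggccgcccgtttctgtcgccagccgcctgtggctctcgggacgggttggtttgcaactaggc

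The Cdkn1a element lies at chr17:29090928-29090947 on the plus strand, 51 bases before the upstream RefSeq start and 2841 bases before the downstream one, and outside the annotated gene. It has 1 mismatch to the consensus, and so has that of Ccng1 at chr11:40755462-40755481 on the minus strand, 195 bases before the start and also outside the annotated gene. The elements of Bbc3, at chr7:16309486-16309505 on the plus strand, and of Aen, at chr7:78895937-78895956 on the plus strand, have 3 mismatches each. The Bbc3 element is intronic in the GENCODE gene model and lies 97 bases before a RefSeq start, and the Aen element is exonic, 121 bases before the downstream of 2 RefSeq starts. Among all 27025 genes with a window, 1.63% held an element by this definition (1.38% of 32851 windows), and 0.0814% held one with at most 1 mismatch (0.0670% of windows). A single 10-base copy without a mismatch was found in windows of 5 of the 8 genes, against 9.55% of all genes. A match of letters is a description and not evidence of p53 binding in these livers. DNA outside the windows was not searched, so a gene without a match here can still hold an element elsewhere.

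The deposited signal was turned back into whole reads, and levels below are the authors' values, here called scaled CPM (CPM divided by a factor for each library, so that the libraries' totals are not equal). The OTD library held 14685193 reads and the Control library 13569189, so 1 read equals a level of 0.0668 in OTD and 0.0751 in Control. With 1 library per group no spread between pools or mice can be measured, no test was possible and no p-value is given. Each ratio is the OTD level over the Control level with its 95% exact Clopper-Pearson interval on the split of reads, which covers counting error only. Genes were called higher when at least 25% higher in OTD, and lower when at least 20% lower (the inverse ratio), among the 11956 genes with a mean level of at least 1, where 14.0% were higher and 9.59% lower by that rule. The tissue label fits the hepatocyte markers, with albumin (Alb) at 69694 in OTD and 81661 in Control. In such bulk RNA, fewer cells of a type and less RNA per cell cannot be told apart.

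In the OTD pool 4 of the 10 genes were at least 25% higher (Bbc3, Phlda3, Mdm2 and Ccng1), 1 was at least 20% lower (Cdkn1a), and 5 lay between these limits (Bax, Eda2r, Aen, Trp53inp1 and Zmat3). Ccng1 lay just inside the threshold with a ratio of 1.28, and Bax just outside with 1.24. The share of 40% higher stood against 14.0% of all genes, and the share of 10% lower against 9.59%. The median log2 ratio of the 10 genes was 0.19, against 0.0075 for all 11956 genes. Low genes scatter more in their ratio, so counts and medians were also set out by level. Of the 7 genes with a mean level of at least 10, 2 were higher and 1 lower, where 7.72% and 5.55% of all such genes were, and their median log2 ratio was 0.021, against -0.0065 for all such genes. Of the 3 genes between 1 and 10, 2 were higher and 0 lower, where the shares of all such genes were 25.1% and 16.6%, and their median log2 ratio was 0.68, against 0.062 for all such genes. All 10 genes had a mean level above 1, and each had at least 25 reads in each library.

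**Figure D1:**
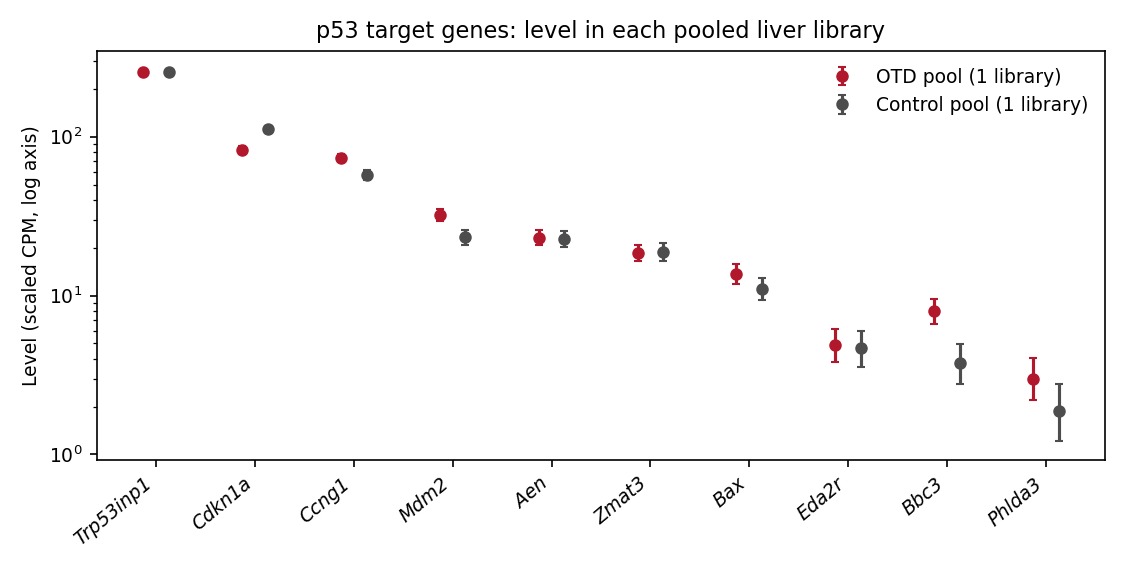
Level of the 10 p53 target genes (scaled CPM, log axis) in the OTD pool (red) and the Control pool (grey), 1 library each, with 95% exact Poisson intervals that cover counting error only. Intervals of the pools do not overlap for Cdkn1a, Ccng1, Mdm2 and Bbc3, and Trp53inp1 lies at 256 in OTD and 257 in Control. The share of all genes with intervals apart was not computed, and deeply read genes separate more easily.

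Mdm2, the ubiquitin ligase that degrades p53 and is itself a p53 target, had a level of 32.3 in OTD (483 reads), against 23.3 in Control (310 reads). The ratio was 1.39 (1.20 to 1.60), so the interval lay wholly above 1. Ccng1 encodes cyclin G1, which recruits protein phosphatase 2A to Mdm2. It had a level of 73.7 in OTD (1103 reads) and 57.6 in Control (767 reads), a ratio of 1.28 (1.17 to 1.40). Mdm2 and Ccng1 were thus both higher in the OTD pool by more than counting error. Other regulators of p53 differed in direction and are given below with their list. Mdm2 lies on chromosome 10 at 117688875 to 117710758 and Ccng1 on chromosome 11 at 40748552 to 40755311 of GRCm38, both protein-coding like the other 8 genes.

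Cdkn1a, whose product p21 inhibits cyclin-dependent kinases, went the other way. Its level was 82.5 in OTD (1235 reads), against 112 in Control (1487 reads). The ratio was 0.738 (0.684 to 0.797), that is 1.35-fold lower in OTD. The whole interval lay below 0.8, and 5.54% of the 11956 genes had a lower log2 ratio. Cdkn1a, at 29090976 to 29100727 on chromosome 17, shares 273 of its 3553 exonic bases with an annotated gene on the opposite strand, and 2.14% of its 50-base stretches also occur in transcripts of other genes.

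Bbc3 encodes PUMA, a BH3-only protein that triggers cell death by binding BCL2 family members. It had the highest ratio of the 10, with a level of 7.95 in OTD (119 reads) and 3.76 in Control (50 reads). The ratio was 2.12 (1.51 to 3.01), the 104th highest of the 11956 genes, of which 1.1% were at least 2-fold higher. Bax, the pore-forming effector that acts downstream of such proteins at the mitochondrion, had a level of 13.7 in OTD (205 reads) and 11.0 in Control (147 reads). Its ratio of 1.24 (0.998 to 1.54) had an interval that just held 1. Of the exonic bases of Bax, 192 of 1576 are shared with Gm45808 on the same strand, a gene that was not among those listed. How reads from the shared bases were counted is not stated. Phlda3, which encodes an inhibitor of the kinase Akt, was the lowest of the 10 genes in counts, with 45 reads in OTD and 25 in Control (levels of 3.01 in OTD and 1.88 in Control). Its ratio of 1.60 (0.961 to 2.72) is past the limit for a call, but its interval held 1, so the difference was not detectable at this depth. Eda2r, a receptor for ectodysplasin A2, had a level of 4.88 in OTD (73 reads) and 4.66 in Control (62 reads), with a ratio of 1.05 (0.736 to 1.49).

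**Figure D2:**
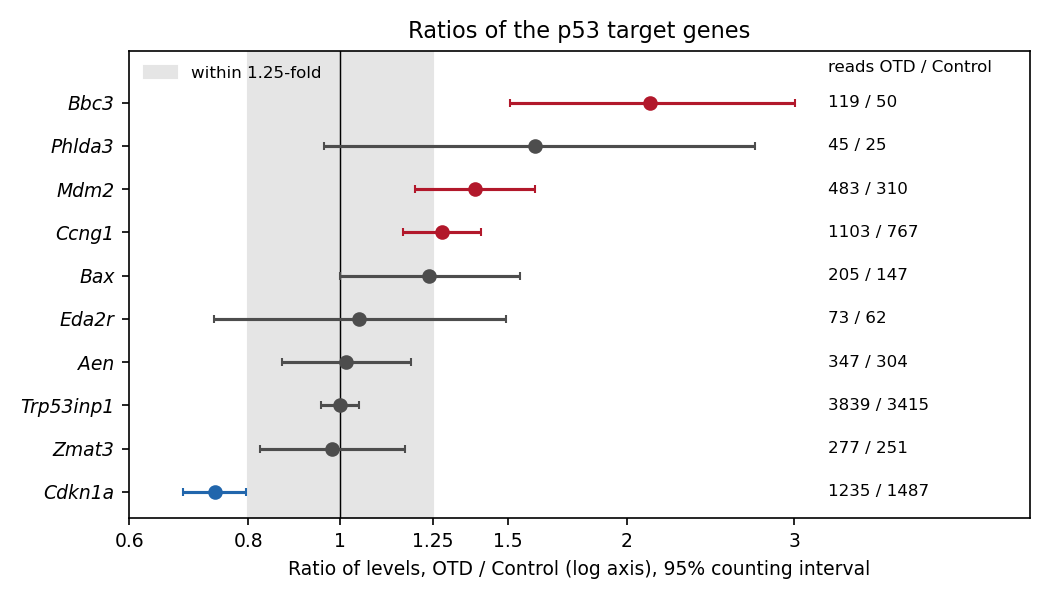
Ratio of levels of each gene, OTD over Control (log axis), with 95% counting intervals and the reads of each library at the right. Intervals above 1 are red, the interval below 1 is blue and those that hold 1 are grey. Bbc3 (2.12), Mdm2 (1.39) and Ccng1 (1.28) lie above 1 and Cdkn1a (0.738) below.

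The 3 remaining genes were near equal in the pools. Trp53inp1, which encodes a stress-induced nuclear protein that acts with p53 and in autophagy, was the most abundant, with 3839 reads in OTD and 3415 in Control. Its levels were 256 in OTD and 257 in Control, and its ratio of 1.00 had the narrowest interval of the 10 (0.954 to 1.05). Aen, an apoptosis-enhancing nuclease, had a level of 23.2 in OTD (347 reads) and 22.8 in Control (304 reads), a ratio of 1.01 (0.868 to 1.19). Zmat3, a zinc finger RNA-binding protein, had a level of 18.5 in OTD (277 reads) and 18.9 in Control (251 reads), a ratio of 0.981 (0.824 to 1.17). The intervals of Aen and Zmat3 leave room for differences of up to about 1.2-fold either way. By the interval rule, 3 of the 10 genes lay above 1, 1 below and 6 held 1, where 15.4% of the 11956 genes lay above 1 and 14.2% below. Deeply read genes pass that rule more easily.

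The ratios among the genes do not depend on how the libraries were scaled. Relative to Cdkn1a, 8 of the other 9 genes had a higher read ratio in OTD than in Control with an interval above 1, and Eda2r did not (1.42, 0.988 to 2.04). Cdkn1a had the lowest ratio of the 10, so the direction of these values follows from that reference. Most genes would share it, since 5.54% of the 11956 genes had a lower log2 ratio than Cdkn1a. Bbc3 reads per Cdkn1a read were 0.0964 in OTD and 0.0336 in Control, a 2.87-fold difference (exact conditional 95% interval 2.02 to 4.11). Mdm2 reads per Cdkn1a read were 0.391 in OTD and 0.208 in Control, a 1.88-fold difference (1.59 to 2.21). Relative to Trp53inp1, the most abundant gene, Bbc3, Mdm2 and Ccng1 were higher in OTD and Cdkn1a was lower (0.739, 0.676 to 0.808). The summed level of all 10 genes was 516 in OTD and 512 in Control, a ratio of 1.01 (0.975 to 1.04), and Trp53inp1 and Cdkn1a together held 65.7% of these reads in OTD and 71.9% in Control. Without Trp53inp1 the sum was 259.6 in OTD and 256 in Control, a ratio of 1.02 (0.970 to 1.06). Without Cdkn1a as well, the gene called lower, it was 177 in OTD and 144 in Control, a ratio of 1.23 (1.16 to 1.31), which follows from leaving that gene out.

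The 4 genes whose start windows are printed above spanned the range of the 10, with ratios of 2.12 for Bbc3, 1.28 for Ccng1, 1.01 for Aen and 0.738 for Cdkn1a. The 2 elements with 1 mismatch belong to a gene that was higher in OTD and a gene that was lower. Levels divided by the longest annotated transcript (scaled CPM per kb) put Trp53inp1 first in OTD at 47.2, followed by Cdkn1a at 39.7 and Ccng1 at 21.0, while Control had Cdkn1a at 53.7, Trp53inp1 at 47.2 and Ccng1 at 16.4. Bax (12.4 in OTD, 10.04 in Control) and Mdm2 (10.3 in OTD, 7.41 in Control) came next in both. Aen, Bbc3, Zmat3, Phlda3 and Eda2r lay below 5 per kb in both pools, with Eda2r lowest at 1.03 in OTD and 0.980 in Control.

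**Figure D3:**
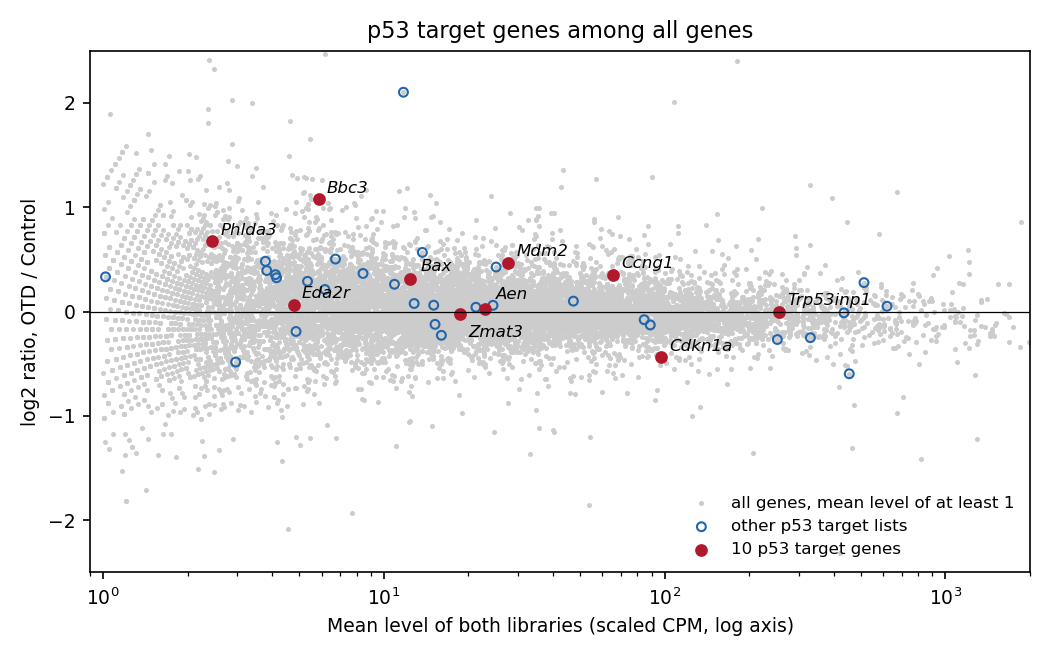
Log2 ratio of OTD over Control against the mean level of both libraries (scaled CPM, log axis) for the genes with a mean level of at least 1 (grey; a few lie outside the axes), the other p53 targets (open circles) and the 10 genes (red). Bbc3 and Phlda3 lie where grey points scatter widely, and Cdkn1a and Ccng1 where they scatter less.

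The other genes of the pathway were taken from lists by role. Trp53 itself had a level of 16.2 in OTD (243 reads) and 13.4 in Control (179 reads), a ratio of 1.21 (0.991 to 1.47). Of 18 genes for p53 and its regulators, 13 had a mean level of at least 1, 2 of them higher (Trp53bp1 and Kat5, the second named after its values were seen) and 2 lower (Ppm1d and Rfwd2), with a median log2 ratio of 0.0072. These shares of 15.4% higher and 15.4% lower stood against 14.0% and 9.59% of all genes. Trp53bp1, which encodes the DNA break adaptor 53BP1, had a level of 14.9 in OTD and 10.5 in Control, a ratio of 1.42 (1.14 to 1.76). Rfwd2, the older symbol of Cop1, encodes another ubiquitin ligase for p53 and had 48.0 in OTD and 63.4 in Control, a ratio of 0.757 (0.685 to 0.838). Ppm1d, a phosphatase that is itself a p53 target and dampens the p53 response, had 72 reads in OTD and 85 in Control, a ratio of 0.753 (0.542 to 1.04). The deubiquitinase gene Usp7 was the most abundant of the list and had 97.3 in OTD and 96.8 in Control. Chek2, a checkpoint kinase gene below the level limit and named after its values were seen, had 24 reads in OTD and 4 in Control, a ratio of 5.33 (1.83 to 21.2). Shares of all genes below that limit were not computed, and genes with so few reads scatter widely in their ratio.

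Of 38 other p53 targets in 4 lists, 30 had a mean level of at least 1, of which 10 were called higher and 2 lower in the OTD pool (33.3% and 6.67%, against 14.0% and 9.59% of all genes). Their median log2 ratio was 0.089. Among the genes called higher, Btg2, Pml, Polk and Ddit4 had intervals above 1, and the intervals of the others held 1. Of the 2 called lower, the interval of Lpin1 lay below 1 and that of Ddb2 held 1. By the interval rule, 6 of these 30 genes lay above 1 and 4 below, where 15.4% of the 11956 genes lay above 1 and 14.2% below. The targets between 1 and 10 held 7 of the 10 higher calls (7 of 11 genes, where 25.1% of all such genes were higher). The 19 targets with a mean of at least 10 had 3 higher and 1 lower, where 7.72% and 5.55% of all such genes were. Growth arrest genes had 3 of 5 higher and 0 lower, DNA repair genes 3 of 6 higher and 1 lower, cell death genes 3 of 9 higher and 0 lower, and metabolic and redox genes 1 of 10 higher and 1 lower. With a mean of at least 10, growth arrest genes had 2 of 4 higher, DNA repair genes 0 of 2 and cell death genes 0 of 4, each with 0 lower. Metabolic and redox genes had 1 of 9 higher and 1 lower at that level. The intervals of cell death genes lay above 1 for 0 genes and below 1 for 2. For growth arrest genes these counts were 2 and 0, for DNA repair genes 1 and 0, and for metabolic and redox genes 3 and 2.

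Among the growth arrest genes, Btg2, an antiproliferative gene, had a level of 16.4 in OTD and 11.0 in Control, a ratio of 1.48 (1.20 to 1.83). Pml, the scaffold of PML nuclear bodies, had 28.8 in OTD and 21.4 in Control, a ratio of 1.34 (1.16 to 1.57). Plk2, a polo-like kinase gene, had a ratio of 1.29 (0.989 to 1.68), and the more abundant Plk3 of 1.07 (0.961 to 1.20). Of the DNA repair genes, Polk, a translesion DNA polymerase, had 118 reads in OTD and 74 in Control, a ratio of 1.42 (1.05 to 1.92). Polh, another such polymerase, had a ratio of 1.28 (0.872 to 1.89), Ddb2 of 0.715 (0.451 to 1.13), and the most abundant, Xpc, of 1.04 (0.895 to 1.21).

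Of the cell death targets, Siva1 (1.40, 0.935 to 2.11), Bid (1.31, 0.882 to 1.97) and Tnfrsf10b (1.22, 0.876 to 1.71) had intervals that held 1, and the most abundant, Ei24, had 229 in OTD and 275 in Control, a ratio of 0.831 (0.793 to 0.871). In the metabolic list Ddit4, an inhibitor of mTORC1 that several stress pathways besides p53 induce, had 19.04 in OTD (285 reads) and 4.43 in Control (59 reads), a ratio of 4.29 (3.24 to 5.79). Lpin1, a phosphatidate phosphatase, had 362 in OTD and 547 in Control, a ratio of 0.662 (0.639 to 0.685). Ephx1, microsomal epoxide hydrolase and also a xenobiotic response gene, had a ratio of 1.21 (1.173 to 1.253), and Aldh4a1, the most abundant, of 1.04 (1.01 to 1.07).

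**Figure D4:**
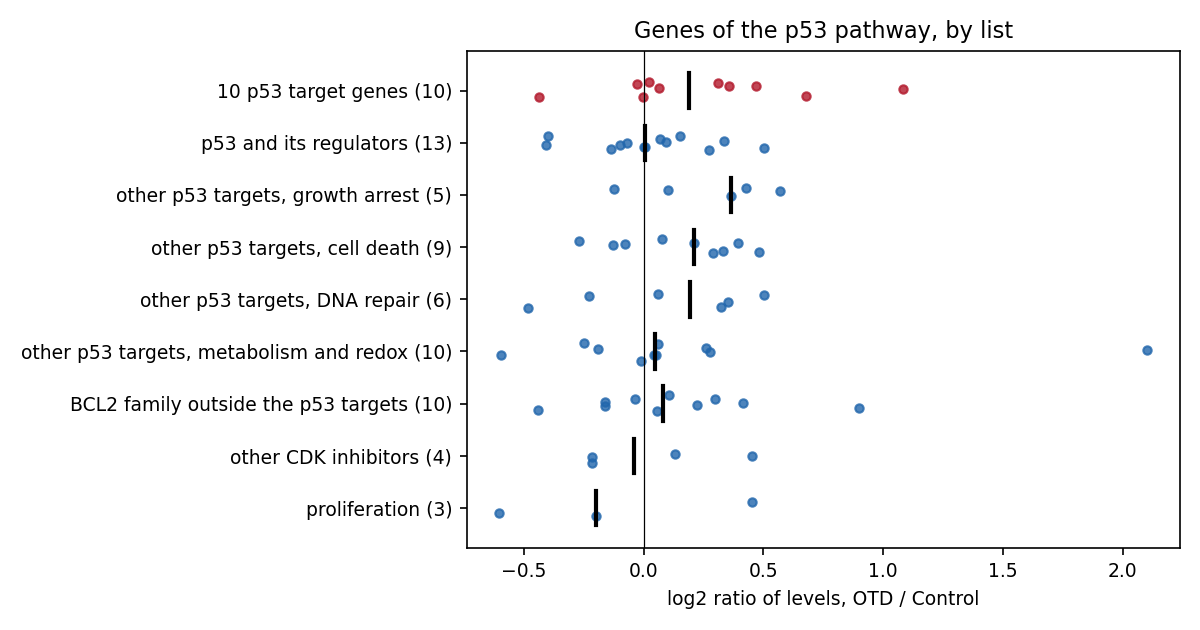
Log2 ratio of OTD over Control for each gene with a mean level of at least 1, by list, with the number of genes in brackets and the median as a black bar; vertical scatter within a list only separates points. Cdkn1a lies lowest among the 10 p53 targets and Ddit4 highest among all points.

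Genes beside the p53 targets were read for the same processes. The BCL2 family outside the targets had 2 of 10 measured genes higher and 1 lower, shares of 20% and 10% that lie near the 14.0% and 9.59% of all genes. All 3 calls fell among its 6 genes with a mean level between 1 and 10, where 25.1% of all genes were higher and 16.6% lower, and 0 of its 4 more abundant genes were called. Bmf, a BH3-only gene, had 10.4 in OTD (155 reads) and 5.56 in Control (74 reads), a ratio of 1.86 (1.40 to 2.49), and Bak1, an effector like Bax, had a ratio of 1.33 (1.02 to 1.75). The anti-apoptotic Bcl2 had 39 reads in OTD and 47 in Control (0.738, 0.470 to 1.15), and the most abundant, Mcl1, a ratio of 0.894 (0.827 to 0.966). Of the other CDK inhibitors, 1 of 4 measured genes was higher and 0 lower. That gene, Cdkn2d, named after its values were seen, had 20 reads in OTD and 13 in Control and lies at a level where 25.1% of all genes were higher. Cdkn1b, which encodes p27 and was the most abundant of them, had a ratio of 1.10 (0.932 to 1.29), and Cdkn1c and Cdkn2c each had 0.862. Proliferation genes were low, with 3 of 12 at a mean level of at least 1. Mki67 had 46 reads in OTD and 47 in Control, Aurka was called higher with 20 in OTD and 13 in Control, and Top2a lower with 20 in OTD and 27 in Control, and all 3 intervals held 1. These 3 genes lie at a mean level between 1 and 10, where 25.1% of all genes were higher and 16.6% lower. Aurka and Top2a were named after their values were seen.

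Markers of the cell types in liver were read as sums. The summed level was 105803 in OTD and 120218 in Control for 8 hepatocyte markers, where Hnf4a (0.707) had the ratio farthest from 1, 318 in OTD and 344 in Control for 8 Kupffer cell markers, and 395 in OTD and 427 in Control for 7 sinusoidal endothelial markers (Pecam1 lowest at 0.831). It was 519 in OTD and 549 in Control for 7 stellate cell markers (Lrat lowest at 0.764) and 43.3 in OTD and 46.3 in Control for 6 cholangiocyte markers. Most of the hepatocyte sum was Alb, with 69694 in OTD and 81661 in Control. The hepatocyte markers Cps1 (1.10) and Tat (1.07), named after their values were seen, had ratios above 1. Ratios below 1 were found for 6 of 8 hepatocyte, 6 of 8 Kupffer cell, 5 of 7 sinusoidal endothelial and 5 of 7 stellate cell markers. They were also found for 2 of 4 measured cholangiocyte markers, where 51.2% of all 11956 genes had a ratio above 1. Among the Kupffer cell markers the most abundant, Clec4f, had 0.924 (0.865 to 0.987), while Cd68 was highest with 1.28 (0.987 to 1.68). Of the cholangiocyte markers the most abundant, Spp1, had a ratio of 0.941 (0.809 to 1.10), Sox9 of 0.824 (0.682 to 0.996) and Krt19 of 1.27 (0.703 to 2.33). Krt7, named after its values were seen, had 26 reads in OTD and 10 in Control, a ratio of 2.31 (1.08 to 5.37). Of the 4 measured cholangiocyte markers, Krt19 and Krt7 were called higher and 0 were lower. Both have a mean level between 1 and 10, where 25.1% of all genes were higher. Of 8 lymphoid markers only Cd4 was listed, with 16 reads in OTD and 23 in Control. The part of these shifts in the results of the p53 targets was not tested. The ribosomal RNA precursor Rn45s took 2.66% of the OTD reads and 1.47% of the Control reads.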

How the data were processed

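The submitters' processing notes name edgeR, RSEM, Bowtie2, Trimmomatic 0.38 and mm10 without saying what each was used for. The annotation and any strand setting are not stated there. Per the labels' protocols, rRNA was depleted from 200 ng of RNA and the kit kept the strand. The values the authors deposited are a normalized signal per gene and library, and 100% of them were whole multiples of 1 read (tolerance 1e-06), equal to CPM divided by 1.02 in OTD and 0.981 in Control. Columns were assigned through their Ctrl and OTD suffixes. Ratios were computed without a pseudocount, a library under 3 reads being set to 3, and fold changes are reported as ratios with 95% Clopper-Pearson intervals; the recovered reads allowed no replicated count test.

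Named genes were the 10 targets, Trp53 and, per list, the most abundant gene and up to 3 with the largest absolute log2 ratio at 50 or more reads, with some cell type markers given only within their list's sum and exceptions stated in the text. Members and lists were chosen with earlier results of these data known. Of 140 listed symbols, 128 were in the table, 1 by an older symbol. Gene models came from GENCODE M21 (GRCm38, the mm10 assembly) and start windows from RefSeq (GRCm38.p6). The tools were scipy 1.17.1, matplotlib 3.10.9, pandas 2.3.3, numpy 2.4.6 and Python 3.11.15, and the ratio and motif searches were tested on simulated data. Alternatives were other scalings, pseudocounts, level filters and fold thresholds.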

Additional observations from a re-analysis of the deposited data

How the results depend on the processing

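Of 70 recomputed ratios of the 10 genes, 68 stayed inside their counting interval, and those called higher or lower kept their direction. The exceptions were Bbc3 with a pseudocount of 10 (1.30), where the added value exceeds the level, and Trp53inp1 with equal totals outside Rn45s (1.05), an alternative chosen after seeing the data. Bax passed the limit for a higher call at equal totals (1.29), and with a pseudocount of 10 Ccng1 (1.24) and Phlda3 (1.09) no longer did. Scalings shifted all log2 ratios by -0.016 to 0.073. The counts of 4 higher and 1 lower became 2 higher at a mean level of at least 10, 2 and 0 at 1.5-fold, and 1 and 0 at 2-fold. Of all genes with a mean level of at least 10, 7.72% were higher, and 1.1% of the 11956 genes were at least 2-fold higher. Shares of all genes at 1.5-fold, at least 2-fold lower, with a pseudocount of 1, without a filter or under other scalings were not computed. For the other p53 targets, the counts of 10 and 2 became 6 and 2 with a pseudocount of 1, and 12 and 4 without a filter. They became 3 and 1 under the minimum mean of 10, 1 and 1 at 1.5-fold, and 1 and 0 at 2-fold. The other scalings gave 8 to 13 higher and 2 lower. Fewer or more genes entered with the filters, and the threshold itself differed with the folds. No paired analysis was possible because each group had 1 library. Depth limits Phlda3, Eda2r, Bbc3 and Bax most.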
